A study of Mus musculus with 41 samples.

Results

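The genes described here encode the dual-specificity MAP kinase phosphatases of the Dusp family. They were found by symbol in 3 deposited tables, and all 10 listed members (Dusp1, Dusp2, Dusp3, Dusp4, Dusp5, Dusp6, Dusp7, Dusp8, Dusp10 and Dusp16) were present among 55453 genes. The tables compare irradiated with untreated rectal tumours of mice in 3 sorted myeloid subsets. MC38-luc, a mouse colon carcinoma line that carries luciferase, had been implanted into the rectum of C57BL6 females. Irradiated tumours received daily fractions of 5 Gy on days 9 to 13, untreated (UT) tumours received none, and every tumour was taken on day 14. Tumour-associated macrophages (TAM; CD45+ CD11b+ Ly6C- Ly6G- F480+) gave 10 irradiated and 5 untreated libraries. Inflammatory monocytes (CD45+ CD11b+ Ly6C+ Ly6G-) gave 9 and 5, and granulocytes (CD45+ CD11b+ Ly6C+ Ly6G+) gave 7 and 5. The model is a transplanted cell line in 1 mouse strain and sex, and the subsets of a tumour number come from the same tumour. The labels give no age.

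MAP kinases of the ERK, JNK and p38 groups are switched on by phosphorylation of a threonine and a tyrosine, and dual-specificity phosphatases remove both phosphates. Many of these phosphatases are induced by the kinases they switch off, so their transcripts form a negative feedback loop. In macrophages the best known is Dusp1, which restrains p38 and JNK and with them the release of inflammatory cytokines after microbial stimuli. Dusp1, Dusp2, Dusp4 and Dusp5 are nuclear and inducible, Dusp6 and Dusp7 are cytoplasmic and prefer ERK, and Dusp8, Dusp10 and Dusp16 prefer JNK and p38. Dusp3 is an atypical, small member without the kinase-binding domain of the others.

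Each deposited table gives, per gene, a mean normalised count over libraries, a log2 fold change (written below as the log2 ratio of irradiated over untreated), a Wald statistic, and p-values before and after adjustment. The fold changes were read as shrunken towards 0, so errors are carried by the Wald statistic, an effect over its standard error, whose sign set the direction. Library by library values were not analysed here, and no SD, depth or overlap between groups can be given. A gene was said to rise or fall at an adjusted p under 0.05 in DESeq2's Wald test as deposited. The mean count is the same in all 3 tables and therefore describes no subset. Over all libraries the authors' deposited table has mean counts of 21103 for Ptprc (CD45), 11003 for Itgam (CD11b), 9607 for Adgre1 (the F480 antigen), 8400.0 for Ly6c2 and 169 for Ly6g, but the sorted identity of each subset could not be checked with them.

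The members differed widely in transcript level. Dusp1 had a mean normalised count of 161704 in the authors' deposited table, rank 8 of all genes. Per kb of transcript its level was 81258, ranked 12 among 31089 genes with a known length. Dusp6 followed with 5866 per kb, Dusp5 with 3574 and Dusp2 with 2057. Lower levels were found for Dusp7 (514 per kb), Dusp16 (209.7 per kb), Dusp3 (166 per kb) and Dusp10 (70.0 per kb). Dusp4 with 36.9 and Dusp8 with 7.03 per kb were the least abundant. These are means over all subsets and treatments, with no spread, so whether neighbours in this order differ was not tested.

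**Figure D1:**
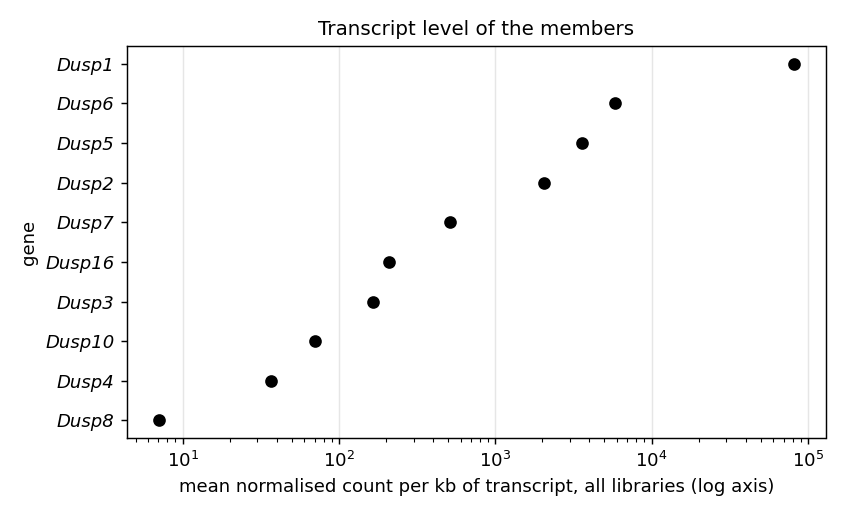
Mean normalised count per kb of transcript over all libraries (log axis) for each member, 1 point per gene and no error available. Dusp1, at 81258 per kb, lies far to the right of Dusp6 at 5866, and Dusp8 at 7.03 is the lowest.

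In macrophages, 5 members rose after irradiation, 2 fell and 3 did not pass the test. Of all 16851 genes tested in this subset, 13.9% rose and 12.5% fell. The members that rose were Dusp1, Dusp2, Dusp3, Dusp5 and Dusp16, and those that fell were Dusp4 and Dusp7. The median log2 ratio was 0.57 over the members and 0.03 over all genes tested. In bulk RNA of sorted cells, more transcript per cell and more cells with the transcript cannot be told apart.

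Among the nuclear, inducible members, Dusp1 moved most in macrophages. The authors' deposited table gives it a log2 ratio of 1.83, a 3.56-fold rise (Wald statistic 8.34, adjusted p = 2.3e-14). Its Wald statistic was the 29th highest of the 16851 genes. Dusp5, which acts on nuclear ERK, had a log2 ratio of 1.26 or 2.39-fold (Wald value 4.98, adjusted p = 1.4e-05) in the authors' deposited table. Dusp2, a phosphatase typical of haematopoietic cells, rose by 0.60 on the log2 scale (Wald value 2.71, adjusted p = 0.0297 in the authors' deposited table). Dusp4 went the other way, with a log2 ratio of -1.07 (Wald value -2.69, adjusted p = 0.0311 in the authors' deposited table) at a mean count of only 101. Of these inducible genes 3 rose and 1 fell.

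Of the cytoplasmic ERK phosphatases, Dusp6, a common readout of ERK activity, did not pass the test in macrophages: its log2 ratio was 0.34 (Wald value 1.56, adjusted p = 0.256 in the authors' deposited table). Dusp7 fell by 0.47 on the log2 scale (Wald value -3.03, adjusted p = 0.0132 in the authors' deposited table). Among the JNK and p38 phosphatases, Dusp16 rose 2.04-fold, with a log2 ratio of 1.03 and a Wald statistic of 3.59 in the authors' deposited table (adjusted p = 0.00255). Dusp8 (log2 ratio 0.54) and Dusp10 (-0.12) did not pass, with adjusted p of 0.488 and 0.778 in the authors' deposited table. Dusp3, which acts on ERK and JNK, rose by 0.66 on the log2 scale (Wald value 4.25, adjusted p = 2.6e-04 in the authors' deposited table).

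The calls of Dusp2 and Dusp4 in macrophages rest on the set of genes adjusted over. With adjustment over every gene that has a p-value, the adjusted p was 0.0553 for Dusp2 and 0.0580 for Dusp4. When Wald statistics were divided by their robust SD, a far stricter scale, 0 of the 16851 genes passed in macrophages and 0 of 15679 in granulocytes, members included.

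**Figure D2:**
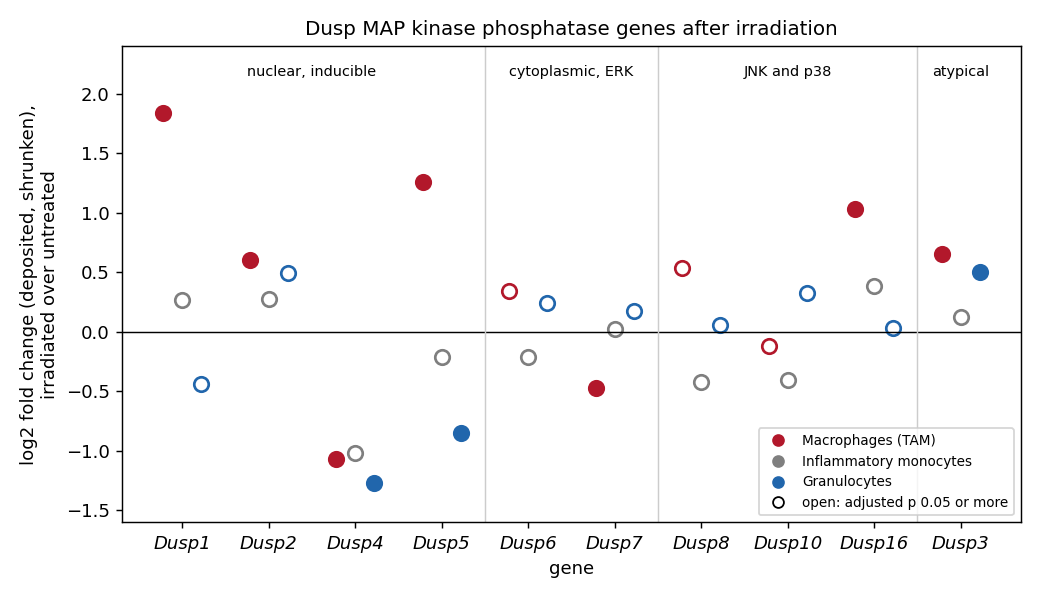
Deposited log2 fold change of irradiated over untreated (vertical axis) for the 10 members, grouped by class, in macrophages (red), inflammatory monocytes (grey) and granulocytes (blue). Filled points passed an adjusted p of 0.05, no error bars are available, and Dusp5 is filled on opposite sides of 0 in macrophages (1.26) and granulocytes (-0.85).

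In inflammatory monocytes, 0 of 10 members passed the test, against 4.13% of 14506 tested genes that rose and 1.77% that fell. The deposited DESeq2 p-value of 1 member, Dusp4, was below 0.05 before adjustment. Dusp4 had a log2 ratio of -1.02 (Wald value -2.59, adjusted p = 0.102 in the authors' deposited table), close to its value in macrophages. Dusp16 had the highest fold in this subset, a log2 ratio of 0.39 with an adjusted p of 0.501 by the authors' deposited table. Dusp1 had 0.27 (adjusted p = 0.541) and Dusp2 0.28 (adjusted p = 0.536) in the authors' deposited table. For Dusp3 (0.12) and Dusp7 (0.03) the log2 ratios in the authors' deposited table were near 0. Negative log2 ratios stood for Dusp5 (-0.21), Dusp6 (-0.21), Dusp10 (-0.40) and Dusp8 (-0.42) in the authors' deposited table. The median over the members was -0.09, beside 0.02 over all genes tested.

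In granulocytes, 1 member rose, 2 fell and 7 did not pass the test, where 7.32% of 15679 tested genes rose and 9.90% fell. Dusp3 rose by 0.50 on the log2 scale (Wald value 3.00, adjusted p = 0.0223 in the authors' deposited table). Dusp5 had a log2 ratio of -0.85, that is 1.80-fold lower in irradiated tumours (Wald value -3.16, adjusted p = 0.0152 in the authors' deposited table). Dusp4 had -1.27, 2.42-fold lower (Wald value -3.08, adjusted p = 0.0186 in the authors' deposited table). These shares of 1 and 2 in 10 lie near the shares of all genes.

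Dusp1 did not pass in granulocytes, and its log2 ratio was -0.44 (Wald value -1.91, adjusted p = 0.181 in the authors' deposited table). Dusp2 had a log2 ratio of 0.49 with an adjusted p of 0.140 by the authors' deposited table. The values of Dusp6 (0.24), Dusp7 (0.18), Dusp10 (0.33), Dusp8 (0.05) and Dusp16 (0.03) were smaller, with adjusted p from 0.437 for Dusp10 to 0.995 for Dusp8 in the authors' deposited table. The median log2 ratio of the members was 0.11, beside -0.03 over all genes tested.

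**Figure D3:**
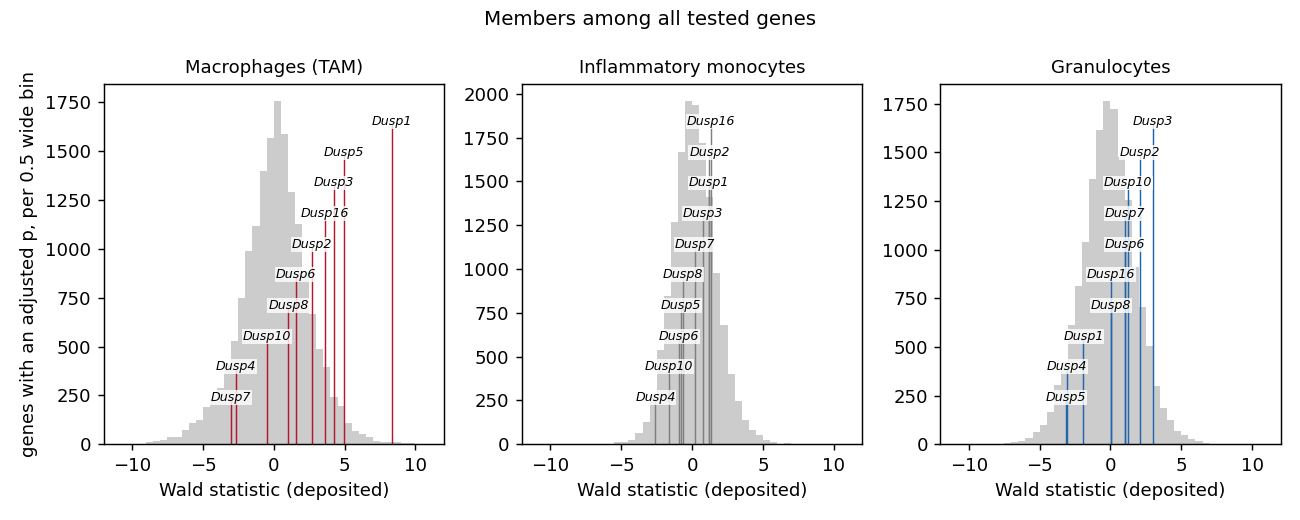
Grey histograms give the deposited Wald statistics of all genes with an adjusted p, in bins 0.5 wide, for each subset, and labelled lines mark the 10 members (the line height only separates the labels). In macrophages Dusp1 lies at 8.34 in the right tail, while in inflammatory monocytes every member lies between -2.59 (Dusp4) and 1.32 (Dusp16).

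Across subsets, the members fell into different patterns. Dusp3 rose in macrophages and granulocytes, and Dusp4 fell in both. Dusp5 rose in macrophages and fell in granulocytes. Whether effects were opposite in sign was tested with the larger of the 2 deposited p-values of a gene, set to 1 where the Wald statistics agree in sign and adjusted over all genes tested in both subsets. By this Benjamini-Hochberg adjusted test 0 of 10 members passed between macrophages and granulocytes, where 0.0957% of 15679 genes did. Dusp5 came nearest, with a larger p of 0.00159 before and an adjusted p of 0.280 after adjustment, and it was the 1 member below 0.05 before adjustment. Dusp1 had an adjusted p of 1.00 in that test. Between macrophages and inflammatory monocytes, and between inflammatory monocytes and granulocytes, 0% of 14506 genes and 0 members passed, and 0 members were below 0.05 before adjustment. A difference in size, such as that of Dusp1 between macrophages and the other subsets, was not tested, because the tables hold no standard error of a fold.

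Dusp9, the remaining cytoplasmic ERK phosphatase, is not among the members and is weakly expressed (mean count 44.2). It fell in macrophages (log2 ratio -1.82, adjusted p = 0.00490) and in granulocytes (-1.71, adjusted p = 0.0226) in the authors' deposited table. In inflammatory monocytes the authors' deposited table has -1.22 with an adjusted p of 0.166.

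Promoter sequences are shown for the 2 members with the highest Wald statistics in macrophages, Dusp1 and Dusp5, and, beside them, for Dusp6, the second most abundant member, which did not pass in any subset. They are the 250 bases before the transcript start that the RefSeq table lists (GRCm38.p6, an earlier build than that of the study), 5′ to 3′ on the gene's strand. They lie at chr17:26508473-26508722 on the minus strand for Dusp1, chr19:53528895-53529144 on the plus strand for Dusp5 and chr10:99262981-99263230 on the plus strand for Dusp6. Capitals mark a cAMP response element (CRE, searched as TGACGTCA) in Dusp1. In Dusp5 they mark a pair of adjoining CArG boxes, the binding motif of serum response factor. Dusp6 holds neither motif, and neither do Dusp2, Dusp3 and Dusp16, which also rose in macrophages.
Dusp1: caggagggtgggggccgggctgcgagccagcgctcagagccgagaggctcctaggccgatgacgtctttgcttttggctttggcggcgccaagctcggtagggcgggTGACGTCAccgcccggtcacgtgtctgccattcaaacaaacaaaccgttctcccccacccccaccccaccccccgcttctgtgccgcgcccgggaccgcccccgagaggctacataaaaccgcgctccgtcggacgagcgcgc
Dusp5: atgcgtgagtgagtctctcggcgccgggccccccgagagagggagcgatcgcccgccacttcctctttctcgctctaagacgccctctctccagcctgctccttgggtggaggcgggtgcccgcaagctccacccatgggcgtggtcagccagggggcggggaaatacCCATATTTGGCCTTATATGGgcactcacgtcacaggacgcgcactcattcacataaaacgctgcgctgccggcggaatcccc
Dusp6: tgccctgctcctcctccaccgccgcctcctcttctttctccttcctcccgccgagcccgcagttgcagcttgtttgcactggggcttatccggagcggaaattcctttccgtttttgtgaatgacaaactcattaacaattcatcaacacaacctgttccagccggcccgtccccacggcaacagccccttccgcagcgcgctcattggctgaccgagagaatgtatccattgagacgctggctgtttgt

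Of the 10 members, 9 had a promoter in the RefSeq table, all but Dusp4. Motifs were searched on both strands from 250 bases before to 50 after the start. A CRE was found in 2 members and in 1.79% of all 32851 promoters of the table. In Dusp1 it begins 143 bases before the start, and Dusp8, which did not pass in any subset, holds a pair of them that begin 107 and 63 bases before the start. A CArG box was found in Dusp5 alone among the members, beginning 82 and 72 bases before the start, and in 1.63% of all promoters. The AP-1 motif (TGANTCA) occurs in 7.81% of all promoters, the TATA box (TATAAA) in 13.6%, the kappa B site in 8.46% and the p53 half-site in 8.36%, and these letters are in no window of a member. The median GC content of the 250 bases was 68.4% for members and 52.4% for all promoters. These matches describe the sequence and say nothing of the factors' binding in these cells.

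Over the 3 Wald statistics, the genes nearest to Dusp1 among 10683 with a mean count of at least 50 were Ier5 (Euclidean distance 0.33), Zfp36 (0.58) and Mxd1 (0.71). Their log2 ratios in macrophages were 1.43 for Ier5, 1.26 for Zfp36 and 1.69 for Mxd1 in the authors' deposited table. In granulocytes the authors' deposited table has -0.36, -0.24 and -0.46 for the same genes. Their likeness to Dusp1 follows from how they were chosen. Ier5 and Zfp36 belong to the list of AP-1 and immediate early genes, many of them induced within minutes by MAP kinase signalling. RNA was taken after sorting, and whether these transcripts changed before or during the isolation of the cells was not tested. The list was chosen with earlier results of these data known. Of its 16 genes, 14 rose in macrophages and none fell, where 13.9% of all tested genes rose and 12.5% fell. Their median log2 ratio was 1.14, beside 0.03 over all genes tested. Among them Nr4a1, which encodes an orphan nuclear receptor, had 1.22 in the authors' deposited table (Wald statistic 6.85, adjusted p = 6.7e-10). In inflammatory monocytes, where 4.13% of all tested genes rose and 1.77% fell, 1 of 16 rose and none fell. It was Fosb, rising 2.42-fold (adjusted p = 4.7e-04 in the authors' deposited table). In granulocytes, where 7.32% of all tested genes rose and 9.90% fell, none of the 16 rose and 6 fell. Their median there was -0.31, beside -0.03 over all genes tested. Atf3, a stress-induced factor, had -0.85 (adjusted p = 2.2e-04), Fosl2 -0.77 (adjusted p = 0.00940) and Jun -0.51 (adjusted p = 0.0133) in the authors' deposited table.

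**Figure D4:**
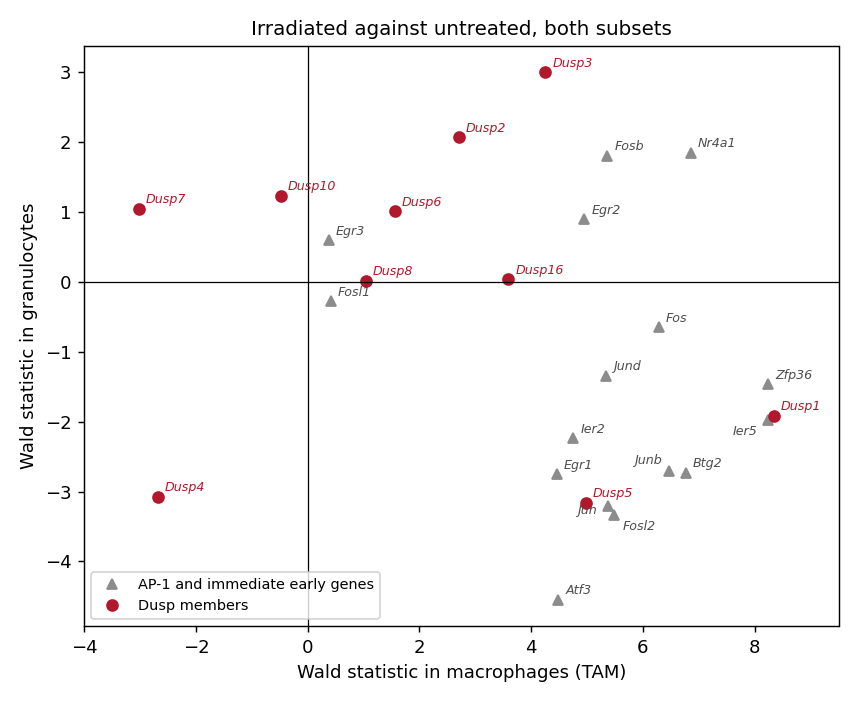
Deposited Wald statistics in macrophages (horizontal axis) and granulocytes (vertical axis) for the 10 members (red circles) and 16 AP-1 and immediate early genes (grey triangles). Dusp1 (8.34 and -1.91) and Dusp5 (4.98 and -3.16) lie at the lower right with most of the immediate early genes, and Dusp4 (-2.69 and -3.08) lies at the lower left.

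Genes taken as outputs of ERK did not move one way. Of these, Egr1 is also in the immediate early list, and Spry2 and Spry4 are also in the Sprouty and Spred list. In macrophages, where 13.9% of all tested genes rose and 12.5% fell, 3 of 10 ERK output genes rose and 2 fell. Among these were Ier3 (log2 ratio 1.10), Egr1 (1.11) and the cyclin gene Ccnd1 (-1.16) in the authors' deposited table. In inflammatory monocytes, where 4.13% of all tested genes rose and 1.77% fell, none of the 10 passed. The most abundant were Egr1 with 0.28 (adjusted p = 0.584) and Ier3 with -0.12 (adjusted p = 0.833) in the authors' deposited table. In granulocytes, where 7.32% of all tested genes rose and 9.90% fell, 3 of 10 fell and none rose. They were Etv4 (-1.84, at a mean count of only 44.0), Ier3 (-0.78) and Egr1 (-0.73) in the authors' deposited table. Of 6 tested Sprouty and Spred genes, which encode inhibitors of receptor signalling to ERK, Spry1 alone fell in macrophages (-1.84, adjusted p = 0.00252) and in granulocytes (-2.40, adjusted p = 3.8e-04) in the authors' deposited table. In inflammatory monocytes none of the 6 passed, and Spry1 had -1.21 with an adjusted p of 0.165 by the authors' deposited table.

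Of the kinases that these phosphatases act on, 9 MAP kinase genes were tested, and 1 rose in macrophages, where 13.9% of all tested genes rose and 12.5% fell. It was Mapk3, which encodes ERK1 (log2 ratio 0.41, adjusted p = 0.0432 in the authors' deposited table). In granulocytes, where 7.32% of all tested genes rose and 9.90% fell, 1 of 9 fell, Mapk12, a p38 isoform gene with a mean count of 21.0 (-1.95, adjusted p = 0.0206 in the authors' deposited table), and in inflammatory monocytes none passed. Of 7 MAP kinase kinase genes, Map2k1, which encodes MEK1, rose in macrophages (0.44, adjusted p = 0.0132) and Map2k4, an activator of JNK, fell in granulocytes (-0.74, adjusted p = 0.00348) in the authors' deposited table. Of 10 MAP3 kinase genes, whose products act on the MAP kinase kinases, 2 rose in macrophages, Map3k8 (0.64) and Map3k1 (0.40), per the authors' deposited table. Map3k8, which encodes TPL2, known in macrophages chiefly as an activator of the MEK and ERK branch, was also the 1 that rose in inflammatory monocytes (0.77, adjusted p = 0.0203 in the authors' deposited table). In granulocytes Map3k11 rose (0.48) and Map3k4 (-0.65) and Map3k2 (-0.43) fell, per the authors' deposited table.

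Of 7 kinase genes listed downstream of p38, 4 rose in macrophages and none fell, where 13.9% of all tested genes rose and 12.5% fell. Those that rose included Mknk2 (log2 ratio 0.64, adjusted p = 4.3e-06), Rps6ka4, which encodes MSK2 (0.42, adjusted p = 0.00123), and Mapkapk3 (0.37, adjusted p = 0.0269) in the authors' deposited table. In inflammatory monocytes none of the 7 passed. In granulocytes Rps6ka4 rose (0.40, adjusted p = 0.00921) and Mknk2 fell (-0.40, adjusted p = 0.0191) in the authors' deposited table.

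Other phosphatases are read against the same shares of all genes. Of 12 tested atypical dual-specificity phosphatase genes, 2 fell in macrophages and none rose, Dusp19 (log2 ratio -0.73) and the mitochondrial phosphatase gene Ptpmt1 (-0.36) in the authors' deposited table. In granulocytes Dusp22 rose 2.01-fold (1.01, adjusted p = 2.7e-06) and Dusp19 fell (-1.04, adjusted p = 0.00499) in the authors' deposited table. None of 11 tested in inflammatory monocytes passed. Among 7 other phosphatases of MAP kinases, 2 rose and 1 fell in macrophages. Those that rose were Ptprr (1.34), at a mean count of only 28.8, and Ppm1d, a p53 target (0.39, adjusted p = 0.0456), per the authors' deposited table. The haematopoietic tyrosine phosphatase gene Ptpn7 fell (-0.34). Ppp2ca, the catalytic subunit gene of PP2A, fell in inflammatory monocytes (-0.38, adjusted p = 0.00583) and in granulocytes (-0.44, adjusted p = 5.1e-04) in the authors' deposited table.

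**Figure D5:**
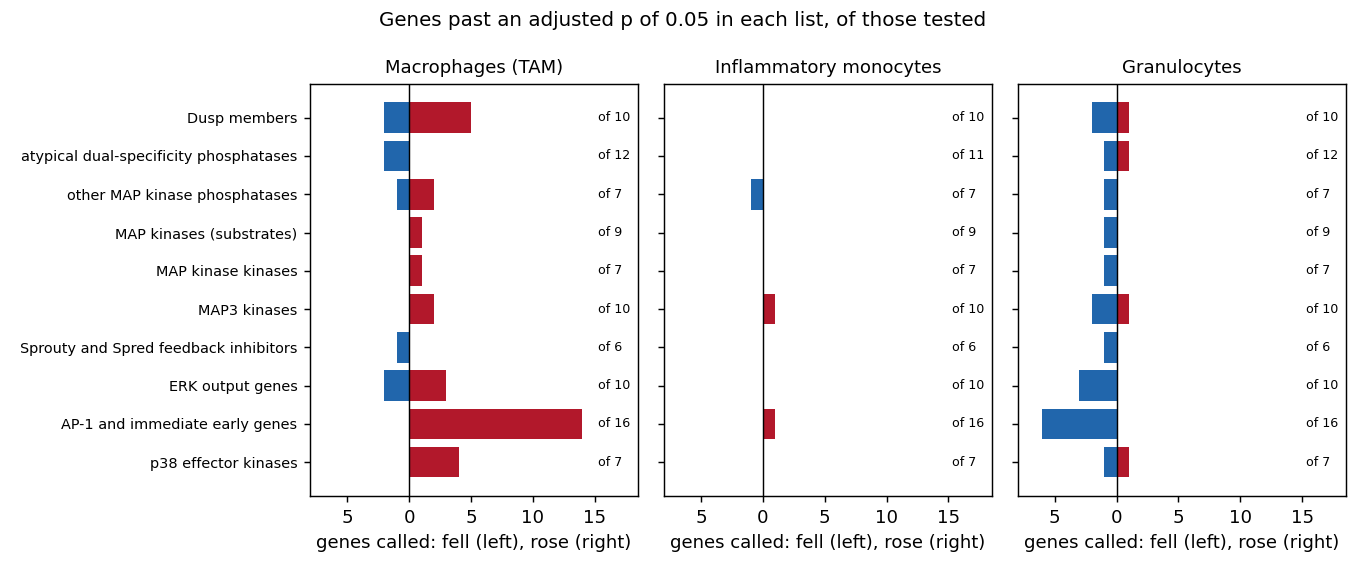
Number of genes in each list past an adjusted p of 0.05 that fell (blue, left of 0) or rose (red, right of 0) in each subset, with the number tested at the right. The AP-1 and immediate early list has 14 of 16 risen in macrophages and 6 of 16 fallen in granulocytes, and the Dusp members have 5 risen and 2 fallen in macrophages.

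Markers of other cells moved in the same comparisons. Of all tested genes, 13.9% rose and 12.5% fell in macrophages. The shares were 4.13% and 1.77% in inflammatory monocytes, and 7.32% and 9.90% in granulocytes. In macrophages, 5 of 9 monocyte markers rose, among them Ly6c2 (log2 ratio 1.96) in the authors' deposited table. Of 12 neutrophil markers 10 passed with a Wald statistic above 0, but 4 of these carry a negative fold, as Ngp does (Wald statistic 9.20 beside a log2 ratio of -0.59 in the authors' deposited table). Of 5 eosinophil markers 3 rose, while dendritic cell markers fell in 4 of 8, fibroblast markers in 3 of 6 and T and NK cell markers in 2 of 7. Of the macrophages' own 12 markers 4 rose, and 1 each of the B cell (fell), epithelial (rose) and endothelial (rose) lists passed. In inflammatory monocytes 8 of 12 macrophage and 7 of 12 neutrophil markers rose, with 1 eosinophil and 1 B cell marker. In granulocytes 6 of 12 macrophage, 3 of 9 monocyte and 1 of 12 neutrophil markers rose with 1 eosinophil marker, and 3 of 6 fibroblast markers and 1 T and NK cell marker fell. No marker is listed at 0 over all libraries, levels within groups were not analysed here, and the part of these cells in the Dusp results was not tested.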

How the data were processed

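RNA of sorted myeloid cells was extracted with a column kit, made into Nextera XT libraries from picogram amounts of cDNA and sequenced on a NovaSeq instrument, per the labels' protocols. Per the submitters' processing notes, the tools were STAR 2.7.6a (after fastp 0.20.1) and, in R 4.0.2, DESeq2 1.28.1, on build GRCm39 (mm39). Not given in the sources used here are the read counter, its strand setting and the annotation. Without strand, reads of overlapping antisense genes cannot be told apart. The overlapping partner of Dusp5, an antisense gene sharing 547 exonic bases, had a mean count of 42.5 beside 8839 for Dusp5. That partner passed the deposited Wald test in granulocytes (adjusted p = 0.0409), where Dusp5 fell. Dusp3 shares 604 bases with an antisense gene of mean count 0, and Dusp8 shares 66 with a gene of mean count 0.144. Dusp1 shares 11 with Ergic1 (mean count 1981). How reads in shared bases were assigned is not known.

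The mean normalised count is a signal deposited by the authors, averaged over libraries. Log2 fold changes and Wald statistics (a score) were deposited by the authors, and so were p-values and adjusted p-values across all genes. The deposited adjusted p-values equal a Benjamini-Hochberg adjustment over the genes that have one. Adjusted p-values began at a mean count of 2.50 for TAM, 6.33 for inflammatory monocytes and 3.96 for granulocytes. All 10 members had an adjusted p in each table. For 16 called genes in TAM and 3 in inflammatory monocytes, fold and Wald statistic differ in sign, and none is a member.

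The members, gene lists and motifs were chosen with earlier results of these data known. All members are described. From each pathway list up to 3 called genes with the smallest p were named, or up to 2 of the highest mean count where none passed, and from each marker list up to 2 called genes. Not every gene so chosen is printed. Protein features had been planned but were not analysed here. Transcript lengths came from GENCODE M21 (GRCm38), matched by symbol for 98.6% of genes with a mean above 0. The longest principal isoform was used, or without one the longest protein-coding transcript, or failing that the longest of any kind. Python 3.11.15, pandas 2.3.3, numpy 2.4.6, scipy 1.17.1 and matplotlib 3.10.9 were used. Alternatives were other thresholds, count and fold minimums, adjustment over every gene, and rescaled or re-centred Wald statistics.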

Additional observations from a re-analysis of the deposited data

Results flagged for a closer look

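Atf3, an immediate early gene named beside the Dusp members, changed in opposite directions in macrophages and granulocytes. The Wald statistic was 4.49 in macrophages and -4.55 in granulocytes in the authors' deposited table, and the test of opposite effects gave a Benjamini-Hochberg adjusted p of 0.0163. It was the 1 gene of the pathway lists that passed this test in any pair of subsets, and 0 Dusp members did. Dusp5 had an adjusted p of 0.280, with a range of 0.195 to 0.562 over the alternatives tried.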

How the results depend on the processing

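No paired analysis was possible because the tables hold no values of single libraries, and no replicate could be left out for the same reason. Every member kept the sign of its effect where it was called, but all alternatives except re-centring leave signs unchanged by construction. Re-centring moved the Wald statistic of Dusp2 in TAM from 2.71 to 2.46. At an adjusted p under 0.01, 4 members rose and 0 fell in TAM, and 0 rose and 0 fell in granulocytes. Of all 16851 genes tested in TAM, 1495 rose and 1423 fell at that threshold. Of 15679 in granulocytes, 571 rose and 849 fell. Adjusting over all genes that have a p-value gave 4 that rose and 1 that fell in TAM, beside 1970 and 1804 of 31511 genes. When a log2 fold change of 1 or more in size was also required, 3 members rose and 1 fell in TAM. In granulocytes 0 rose and 1 fell. Among all tested genes, 903 rose and 754 fell in TAM by that rule, and 413 and 745 in granulocytes. Re-centring on the median gene gave 4 members that rose in TAM, without Dusp2 (adjusted p = 0.0517). Of all 16851 genes, 1989 then rose. Wald statistics divided by their robust SD left 0 members called in either direction in TAM and granulocytes, and 0 of all genes there, so this setting says nothing particular to the members. Member counts at an adjusted p under 0.1 and with a mean count of at least 50 equalled those reported. Over all genes in TAM, 2927 rose and 2606 fell at 0.1, and 2163 and 1977 of 10683 with that count minimum. In inflammatory monocytes 0 members passed under each alternative run. The stricter threshold and the fold minimum could only return 0 there, as 0 members passed at first. At 0.1, 895 of all 14506 genes rose and 448 fell, and Dusp4 had an adjusted p of 0.102 in the Wald test. Its lowest values were 0.0872 with a mean count of at least 50 and 0.0882 after re-centring. In the test of opposite effects 0 members passed under each alternative, beside 43 of 15679 genes between TAM and granulocytes at 0.1. Library depth is unknown, so the smallest change detectable for weakly expressed members such as Dusp8 cannot be stated.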
